A study of Mus musculus with 4 samples.

Results

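The histone genes of the mouse oocyte transcriptome were taken as every gene symbol beginning with Hist1h to Hist4h, H2af, H3f3 or H1f in the deposited expression tables, with the values of rows that carry the same symbol summed. The rule found 81 of 23309 gene symbols. They comprised 67 replication-dependent genes of the Hist1 to Hist4 clusters and 14 genes for replication-independent variants, among them H1foo, the linker histone of the oocyte. Expression was given as FPKM, fragments per kilobase of transcript scaled to the number of mapped fragments, in 4 libraries of 60 oocytes each from ICR mice. The series addressed the degradation of maternal mRNA in ERK-deleted oocytes, ERK being the kinase of the MAPK cascade that acts during meiotic maturation. One library came from each of 4 groups: wild-type oocytes at the germinal vesicle (GV) stage, the fully grown oocyte arrested before meiosis resumes; Erk-/- oocytes at the GV stage; wild-type oocytes at metaphase II (MII), the mature oocyte awaiting fertilization; and Erk-/- oocytes at MII. The females were 21 to 23 days old and had received PMSG and hCG, the gonadotropins that drive follicle growth and ovulation. The treatment text of the labels names Btg4-/- females where the genotype field has Erk-/-, and neither the deleted Erk gene nor a Cre driver is given in the sources used here.

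With 1 library per group there was no replicate check, so no test or p-value is given and each value describes its library alone. Mapk3, an ERK gene, stood at 333 and 52.3 FPKM in the wild-type and Erk-/- GV libraries and at 25.7 and 34.3 FPKM in the wild-type MII library and the one labelled Erk-/-. Its level was thus not lower in the latter than in wild-type MII, and that library is therefore named below by its label only, as the MII library labelled Erk-/-. Where 4 values follow one another below, they stand in the order wild-type GV, Erk-/- GV, wild-type MII, MII labelled Erk-/-. All 10 oocyte markers examined, such as Zp3 and Gdf9, were above 0 in every library. Of 13 granulosa and cumulus markers, 9 to 11 were listed at 0 in a library and the summed level lay between 11.9 and 22.7 FPKM, most of it Cyp19a1 or Inha. All 6 blood markers were listed at 0. The part of somatic cells in the histone values was not tested. In pooled oocytes, fewer cells of a kind and less RNA per cell cannot be told apart.

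Replication-dependent histone genes supply the nucleosomes of newly copied DNA. Their mRNAs are intronless, and in place of a poly(A) tail they end just after a conserved stem-loop that is bound by SLBP, the stem-loop binding protein. Variant genes are transcribed outside S phase, their mRNAs are polyadenylated, and their products replace canonical histones in existing chromatin. The oocyte, which grows for weeks without replicating DNA, stores histone mRNA and protein for the embryo and uses H1foo in place of the somatic linker histones.

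The 3′ ends of the mRNAs are what sets the 2 classes apart, so representative ends are shown first. They were read from the GENCODE vM21 transcripts of GRCm38, matched by symbol, while the deposited values use mm9. All 81 symbols matched. The first group shows the windows around the hexamer AATAAA or ATTAAA, the poly(A) signal, in the last 50 bases of variant mRNAs with the hexamer in capitals. The second line of H1foo shows TTTTAT, the cytoplasmic polyadenylation element through which stored oocyte mRNAs gain poly(A) tails at maturation.
H1foo: tcataatttatcAATAAAgactttgtattc
H1foo, TTTTAT: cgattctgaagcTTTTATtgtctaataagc
H3f3a: aatttgaaaaatAATAAAagtaccaataga
H3f3b: ataggccttacaAATAAActagtaagtttg
H1f0: ttaaaactttaaAATAAAactggaaaggaa
H1fx: ttcctggggcgcAATAAAcggttccaacct
H2afz: ctctgcttactaATTAAAcagtgcatctgt

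The next group shows the 16-base stem-loop, in capitals, with 7 flanking bases on either side, for 7 of the cluster genes that reached at least 10 FPKM, chosen to show the main versions, and for the variant gene H2afx.
Hist2h2aa1: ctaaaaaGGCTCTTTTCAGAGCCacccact
Hist1h2bg: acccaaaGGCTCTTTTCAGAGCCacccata
Hist1h2bj: atccaaaGGCTCTTTTCAGAGCCacgcaca
Hist3h2ba: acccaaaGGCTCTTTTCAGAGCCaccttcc
Hist1h4a: aaccaaaGGCCCTTCTCAGGGCCgcccaca
Hist1h4b: tacaaaaGGTCCTTTTCAGGACCactcact
Hist1h4h: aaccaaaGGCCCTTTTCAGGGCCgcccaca
H2afx: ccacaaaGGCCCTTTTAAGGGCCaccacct

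The stem-loop was searched on the transcript strand as GG, 3 pyrimidines, T, 2 bases other than G, T, 1 base other than G, A, 3 purines and CC, the consensus of animal histone mRNAs. A match was found in 46 of the 67 replication-dependent genes, in 1 of the 14 variant genes, and in 208 of all 141767 transcripts (0.147%). Among the 46 cluster genes 8 versions occurred. The version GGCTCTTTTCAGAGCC was held by 26 genes: 3 of H1, 10 of H2A, 8 of H2B and 5 of H3. No H4 gene held it, and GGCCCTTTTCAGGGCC was held by 7 genes, all of them H4. H2afx, which encodes the histone phosphorylated at DNA breaks, was the variant gene with the stem-loop, and its longest transcript runs for 822 bases beyond it and carries ATTAAA near its end. Among named cluster genes, no match was found for Hist1h1a, Hist1h2aa, Hist1h2bc, Hist1h4k or Hist2h2bb. The annotated transcript of Hist1h4k is 312 bases long. A transcript model that ends before the stem-loop cannot hold a match, so a gene without a match may still have the element. The same limit holds for the poly(A) signals counted next. Whether each model reaches the true 3′ end was not tested.

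A poly(A) signal lay in the last 50 bases of a transcript of 11 of the 14 variant genes and of 16 of the 67 replication-dependent genes. Of all 58797 protein-coding transcripts, 50.2% held one. The 11 variant genes with the signal all reached at least 1 FPKM in a library, and the other 3, H1fnt, H2afb1 and H2afy3, were listed at 0 in every library. In the clusters 6 of 16 genes with the signal and 19 of 51 without it were listed at 0 in every library. TTTTAT lay in the last 100 bases of the longest signal-bearing transcript of H1foo, H2afv and H2afx, 3 of 10 variant genes with a coding transcript of that kind, against 13.5% of 17050 genes. Over all histone genes of that kind the count was 4 of 26, which adds a cluster gene. In H1foo TTTTAT began 45 bases before the poly(A) signal and in H2afv 32 bases before it. In H2afx it began 4 bases before the signal and so overlaps it.

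**Figure D1:**
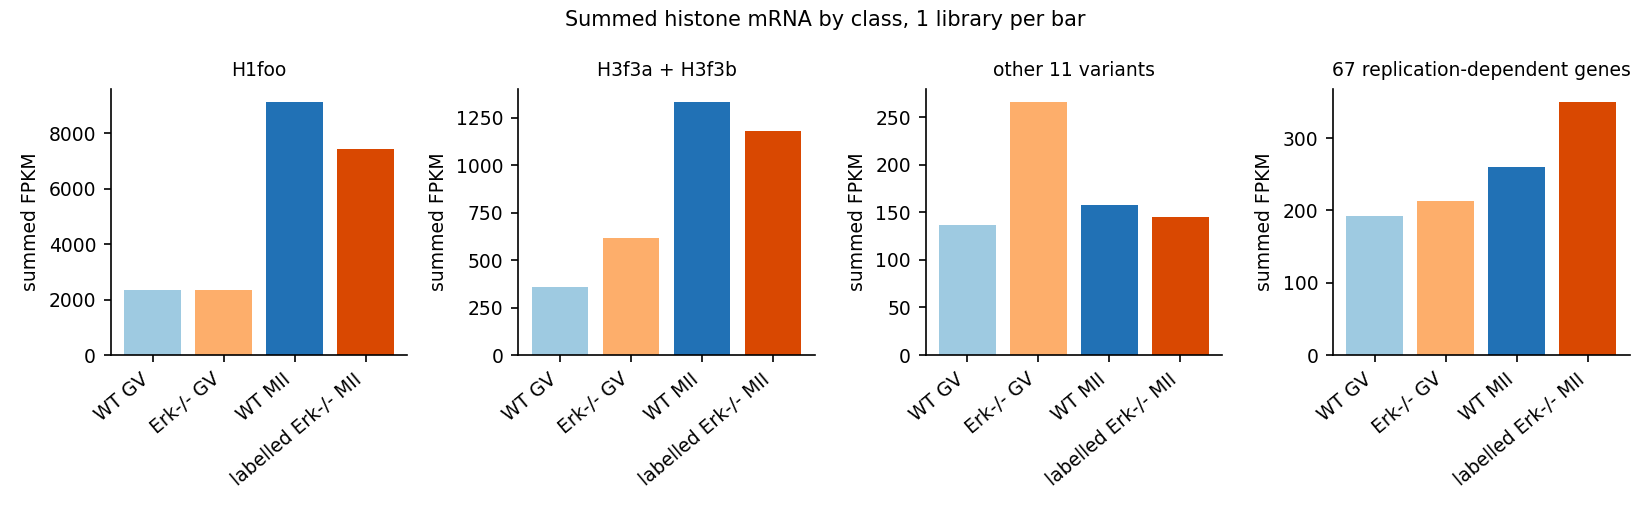
Summed FPKM (vertical axes, each starting at 0 and scaled separately) of H1foo, of H3f3a with H3f3b, of the other 11 variant genes and of the 67 replication-dependent genes, with 1 bar per library and no error bars because each group has 1 library. H1foo stood at 2353 and 2363 FPKM at GV and at 9139 and 7430 FPKM at MII, while the replication-dependent genes summed to 193 to 350 FPKM.

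Variant mRNA outweighed replication-dependent mRNA in every library. The 14 variant genes summed to 2848 and 3247 FPKM at GV in the wild type and Erk-/-, and 10632 and 8753 FPKM in the wild-type and labelled Erk-/- MII libraries. The 67 replication-dependent genes summed to 193, 213, 260 and 350 FPKM in the same order, or 0.0425%, 0.0506%, 0.0648% and 0.0846% of each library's summed FPKM. The order of the 2 MII libraries in this sum turned under median-of-ratios scaling, at 351 FPKM in the wild type and 327 FPKM in the other. The ratio of variant to replication-dependent FPKM was therefore 14.8 and 15.2 in the GV libraries, 40.9 in wild-type MII and 25.0 in its counterpart labelled Erk-/-. Most of the variant sum was H1foo. Without it, the other 13 variant genes still exceeded the replication-dependent sum, at 495, 884, 1493 and 1323 FPKM. How the purification of mRNA before library construction treated messages without a poly(A) tail was not tested, and the class ratios describe the sequenced libraries rather than the cell's content.

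H1foo (chr6:115894957-115900251, mm9) encodes the linker histone that occupies oocyte chromatin and the early embryo. Its level was 2353 and 2363 FPKM at GV in the wild type and Erk-/-, and 9139 and 7430 FPKM in the wild-type and labelled Erk-/- MII libraries. The GV values were nearly equal, and both MII libraries stood above them, 3.88-fold in the wild type and 3.14-fold in the pair labelled Erk-/-. It was the highest of all genes in both MII libraries, ahead of Bcl2l10 at 7221 FPKM in the wild type and Ldhb at 6356 FPKM in the MII library labelled Erk-/-, whereas it ranked 11 and 8 at GV. H1foo made up 77.4%, 68.3%, 83.9% and 81.6% of all histone FPKM in the 4 libraries. The level in the MII library labelled Erk-/- was 0.813 of that in wild-type MII. All 4 values of H1foo lay above their own deposited upper bounds, as did values of other genes named with the processing below.

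The other linker variants moved in different ways across maturation. H1f0, the linker histone of differentiated cells, stood at 23.2, 18.1, 95.2 and 80.9 FPKM in wild-type GV, Erk-/- GV, wild-type MII and the MII library labelled Erk-/-. Its 2 MII values were thus both above its GV values, 4.09-fold in the wild type and 4.48-fold in the pair labelled Erk-/-. H1fx, a linker variant of somatic cells, had the reverse order, at 53.1, 82.1, 4.85 and 5.67 FPKM. It was 10.9-fold lower at MII in the wild type and 14.5-fold lower in the pair labelled Erk-/-. H1fnt, the linker variant of the spermatid nucleus, was listed at 0 in all 4 libraries.

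H3f3a and H3f3b encode the same replacement H3 protein, the form laid down in chromatin without replication. H3f3b stood at 191, 184, 884 and 612 FPKM in wild-type GV, Erk-/- GV, wild-type MII and the MII library labelled Erk-/-, 4.62-fold and 3.34-fold higher at MII. H3f3a stood at 167, 434, 452 and 566 FPKM, so that the Erk-/- GV library already lay near the MII libraries. The share of H3f3b in the pair was 53.4% and 29.7% at GV, wild type first, and 66.2% and 52.0% at MII. H3f3a differed by 2.71-fold across maturation in the wild type and by 1.30-fold in the pair labelled Erk-/-, and it was 2.60-fold higher in Erk-/- GV than in wild-type GV. At MII H3f3a was 1.25-fold higher in the library labelled Erk-/-, a direction that turned under median-of-ratios scaling of the libraries (log2 ratio of FPKM + 1 of 0.33 as deposited and -0.21 scaled). The 2 genes summed to 358, 618, 1335 and 1178 FPKM, and their difference between the GV libraries was carried by H3f3a.

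Of the 8 H2A variant genes 5 reached 10 FPKM, and 4 of these were highest in the Erk-/- GV library. H2afx stood at 17.1, 85.4, 37.6 and 31.1 FPKM in wild-type GV, Erk-/- GV, wild-type MII and the MII library labelled Erk-/-. H2afz, whose product marks promoters and other regulatory chromatin, stood at 13.3, 26.5, 13.5 and 13.9 FPKM, so that 3 of its 4 values lay close together. H2afy, the gene of macroH2A1, a variant of repressed chromatin, was listed at 0 in wild-type GV and stood at 21.1, 5.18 and 0.963 FPKM in the others. The remaining pair was lowest in wild-type MII. H2afj stood at 11.2, 25.3, 0.0533 and 7.19 FPKM, and H2afv, a close relative of H2afz, at 15.3, 7.73, 1.57 and 5.11 FPKM. H2afv was the one of the 5 that was highest in wild-type GV. The 8 genes summed to 60.5, 166, 57.9 and 58.3 FPKM, so the Erk-/- GV library was 2.75-fold above wild-type GV while the 3 other sums lay between 57.9 and 60.5 FPKM. H2afy2, the gene of macroH2A2, was listed at 3.61 FPKM in wild-type GV and at 0 in the others, and its locus overlaps the rows of Aifm2 and Mir5108.

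**Figure D2:**
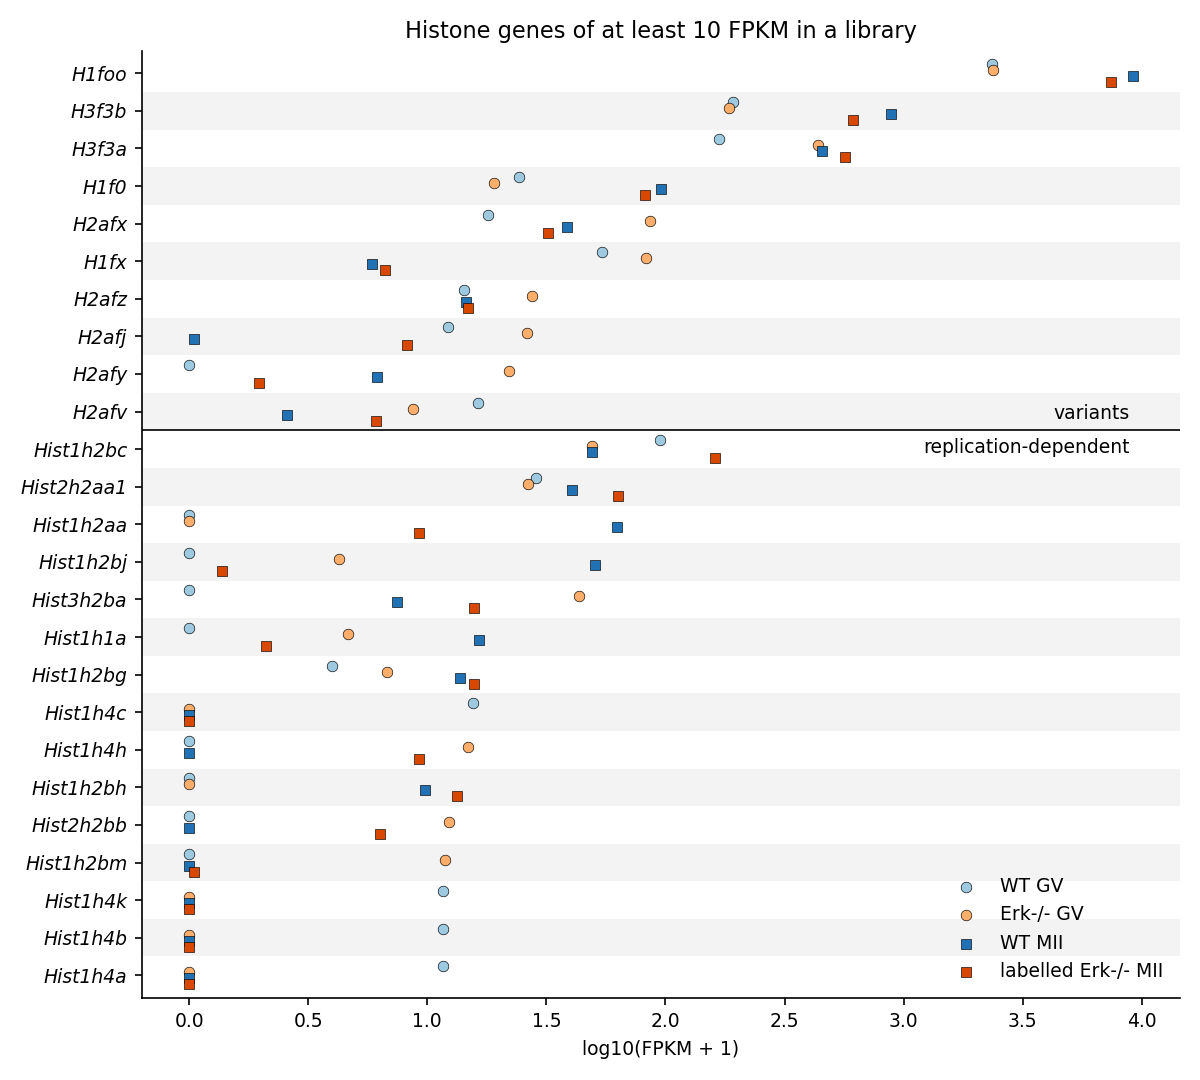
Level of the 25 histone genes that reached at least 10 FPKM in a library, as log10(FPKM + 1) on the horizontal axis, with 1 symbol per library (circles for GV, squares for MII). H1foo, H3f3b and H1f0 have both MII squares to the right of both GV circles and H1fx has them to the left, while many cluster genes are listed at 0 in 1 or more libraries.

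Few replication-dependent genes were well above 0, and a small number carried the sum. Of the 67 genes, 25 were listed at 0 in all 4 libraries, 12 were above 0 in all 4, and 30 were above 0 in some. Of all 23309 symbols, 45.7% were listed at 0 in all 4 libraries, against 37.3% of the 67 genes. The number above 0 was 18 and 23 at GV, wild type first, and 21 and 36 at MII. Over all symbols it was 10057 and 9666 at GV and 9134 and 10828 at MII. Of the 67 genes, 15 reached 10 FPKM in a library, as did 7252 of all symbols. Of all 81 histone genes, 56 stayed under 10 FPKM, 28 of them at 0 throughout and 28 with a highest value between 0.000120 FPKM and 9.16 FPKM, the latter that of Hist1h1c, a somatic linker histone gene. The genes are short, 53 of the 67 spanning under 1000 bases of genome, and their values are uncertain where copies share sequence. Among all 2278 symbols with so short a span, 95.1% were listed at 0 in every library, against 43.4% of the 53 histone genes and 14.3% of the 14 with longer spans.

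Hist1h2bc (chr13:23776068-23784349), an H2B gene whose mapped locus is far longer than an intronless histone gene, was the highest cluster gene in all libraries other than wild-type MII. It stood at 94.1 and 48.4 FPKM at GV in the wild type and Erk-/-, and 48.0 and 161 FPKM at MII. The level in the last library was 3.35-fold that of wild-type MII, and the Erk-/- GV level was 1.95-fold below that of wild-type GV. It made up 48.9%, 22.7%, 18.5% and 45.9% of the replication-dependent sum. Without it the sum was 98.4, 165, 212 and 189 FPKM, and the MII library labelled Erk-/- no longer had the highest value.

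Hist2h2aa1, an H2A gene of the Hist2 cluster, was the other cluster gene above 20 FPKM in all libraries. It stood at 27.7, 25.5, 39.5 and 62.4 FPKM in wild-type GV, Erk-/- GV, wild-type MII and the MII library labelled Erk-/-. Both GV values lay below both MII values. The symbol sits on 2 rows with equal values that the deposited table marks as low data and that overlap the rows of Hist2h2aa2, whose own value was at most 0.000120 FPKM, so the level is that of the locus rather than of 1 gene copy. Hist1h2bg, an H2B gene, stood at 2.97, 5.74, 12.7 and 14.7 FPKM, also with both GV values below both MII values. Hist1h2bh, also H2B, was at 0 in the GV libraries, 8.78 FPKM in mature wild-type oocytes and 12.4 FPKM in the MII library labelled Erk-/-.

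Several cluster genes stood apart in 1 library. Hist1h2aa, the gene of the testis H2A form TH2A that is also stored in oocytes, had no FPKM above 0 at GV but 61.9 FPKM in mature wild-type oocytes and 8.24 FPKM in the MII library labelled Erk-/-. Its neighbour Hist1h2ba, the gene of the H2B partner TH2B, lies 305 bases away and stood at 0, 3.20, 1.60 and 0.364 FPKM in the order of libraries given above. Hist1h2bj stood at 0, 3.24, 49.7 and 0.369 FPKM, so that its wild-type MII value exceeded the 3 others, 135-fold in the case of the other MII library. Hist1h1a, the gene of a somatic linker histone, had the same order at 0, 3.67, 15.5 and 1.10 FPKM. Hist3h2ba, an H2B gene of the Hist3 cluster, was highest in Erk-/- GV, at 0, 42.5, 6.50 and 14.7 FPKM. Hist1h2bm stood at 0, 10.8, 0 and 0.0537 FPKM, again with its one value above 10 FPKM in Erk-/- GV. Hist2h2bb was above 0 only in the libraries labelled Erk-/-, with 11.4 FPKM at GV and 5.33 FPKM at MII.

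No H4 gene was above 0 in wild-type MII. Of 13 H4 genes, 8 and 12 were listed at 0 at GV, wild type first, and 13 and 11 at MII. In wild-type MII 60.8% of all symbols and 97.4% of the 2278 symbols spanning under 1000 bases were also at 0. Among the 53 replication-dependent genes with so short a span the share was 75.5%. The part of gene length in the H4 zeros was not tested. The 13 H4 genes summed to 51.4 and 13.9 FPKM at GV, wild type first, and to 0 and 16.0 FPKM at MII. In wild-type GV, Hist1h4a, Hist1h4b and Hist1h4k each had 10.6 FPKM, Hist1h4c had 14.6 FPKM and Hist4h4 had 4.86 FPKM, and all 5 were listed at 0 in the 3 other libraries. The 3 equal values belong to genes whose transcripts share exact stretches of 230 to 236 bases, so which copy gave the reads is uncertain. Hist1h4h was listed at 0 in both wild-type libraries and stood at 13.9 FPKM in Erk-/- GV and 8.24 FPKM in the MII library labelled Erk-/-. The stem-loops printed above differ among these genes, being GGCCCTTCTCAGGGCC in Hist1h4a, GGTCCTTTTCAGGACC in Hist1h4b and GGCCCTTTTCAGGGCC in Hist1h4h.

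The core histone types were not represented evenly. The 18 H2B genes summed to 99.5, 139, 130 and 225 FPKM, and the 18 H2A genes to 33.5, 30.4, 104 and 82.2 FPKM, in the order wild-type GV, Erk-/- GV, wild-type MII and the MII library labelled Erk-/-. Of these, 3 H2B and 11 H2A genes were listed at 0 in every library. The 12 H3 genes of the clusters summed to 4.12, 10.4, 6.76 and 16.9 FPKM, and no H3 gene reached 10 FPKM, while the replacement H3 genes each exceeded 100 FPKM in every library. The 6 cluster H1 genes summed to 4.06, 19.8, 19.4 and 9.86 FPKM. H2A and H2B genes lie side by side in the clusters, and 14 such neighbour pairs lay within 1000 bases of each other. Of these pairs, both members were above 0 in 0, 0, 1 and 3, only the H2B member in 8, 10, 8 and 8, and only the H2A member in 1, 1, 1 and 2. The part of shared sequence among the copies of each type in this difference was not tested.

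**Figure D3:**
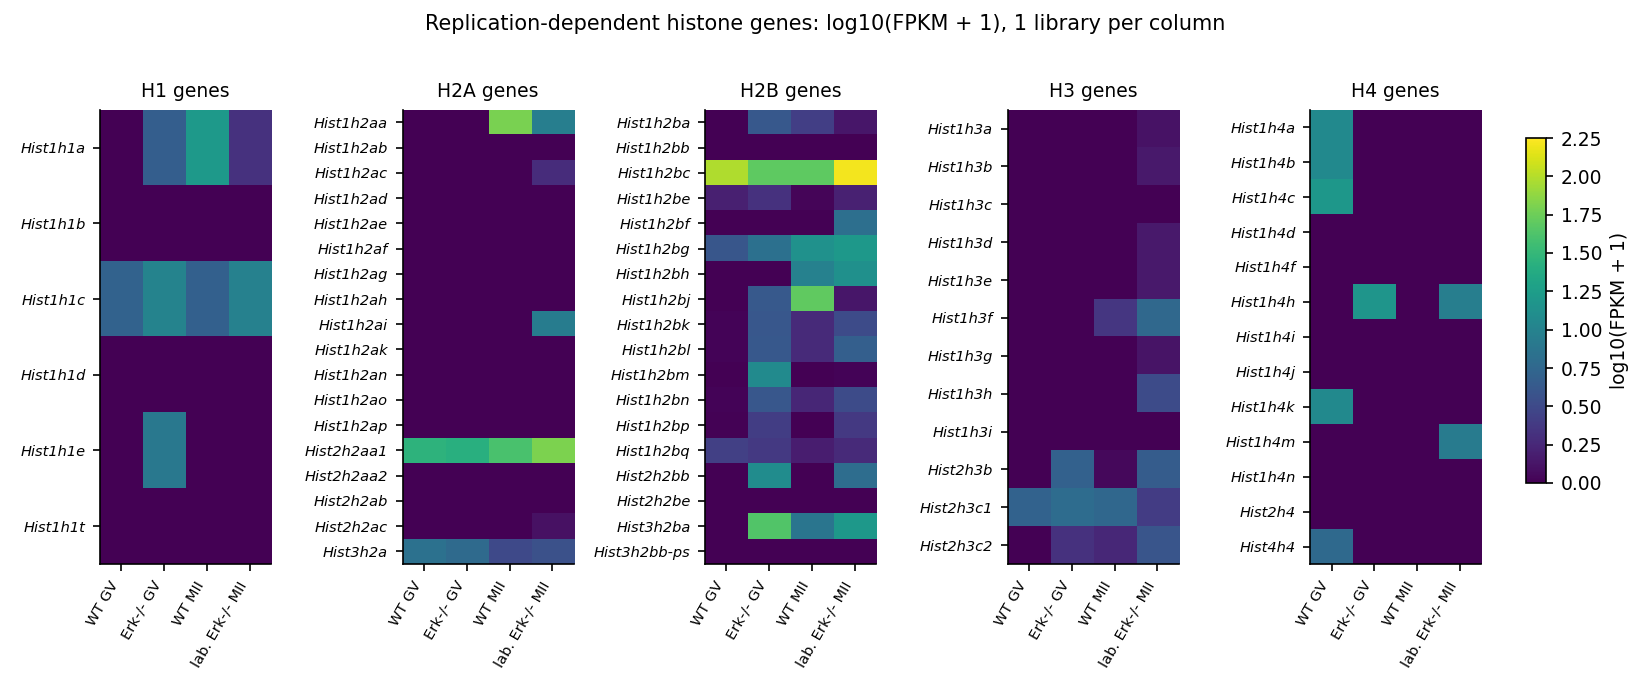
Level of the 67 replication-dependent genes as log10(FPKM + 1) (colour scale at the right), with 1 panel per histone type, 1 row per gene and 1 column per library. Hist1h2bc and Hist2h2aa1 are bright in all 4 columns, 11 of 18 H2A genes are at 0 throughout, and the H4 column of wild-type MII is dark in all 13 rows.

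Maturation was then compared gene by gene as the log2 ratio of FPKM + 1, a scale that understates the change of low genes, with 2-fold taken as a rule of size. A mean over the libraries of 1 FPKM or more was required, which 9990 genes met. Of these, 41 were histone genes, 31 replication-dependent and 10 variant. A gene listed at 0 in a library passes this filter through the libraries where it is high, so the counts are descriptions. In the wild type, 8 of 31 replication-dependent genes were at least 2-fold higher at MII, beside 20.6% of all genes, and 6 were at least 2-fold lower, beside 49.6% of all genes. Their median log2 ratio was 0.00 and that of all genes was -0.97. Of the 31 genes, 22 span under 1000 bases. Of all 80 genes with so short a span, histone genes included, 31.25% were higher and 30% lower, with a median of 0.00. The 22 are among these 80 genes, so the sets overlap and a likeness between them is partly built in. The part of gene length was not tested. Of the 10 variant genes 6 were at least 2-fold higher at MII (H1foo, H3f3a, H3f3b, H1f0, H2afx and H2afy) and 3 were lower (H1fx, H2afj and H2afv), with a median of 1.26. With median-of-ratios scaling the median of all genes moved up by 0.67, and the replication-dependent counts became 12 higher and 5 lower.

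In the pair labelled Erk-/-, 9 of 31 replication-dependent genes were at least 2-fold higher in the MII library labelled Erk-/- than in Erk-/- GV, beside 22.9% of all genes, and 7 were lower, beside 35.6%. Their median was again 0.00, with a median of -0.26 for all genes. Of the 80 genes spanning under 1000 bases, 23.75% were higher and 38.75% lower, with a median of -0.36. Of the variants 3 were higher, namely H1foo, H3f3b and H1f0, and 4 were lower, namely H1fx, H2afj, H2afx and H2afy, with a median of -0.70. H1foo, H3f3b, H1f0 and H1fx thus each had the same direction in both pairs. H2afx was 2.20-fold higher at MII in the wild type and 2.74-fold lower in the pair labelled Erk-/-. The cluster genes Hist1h1a, Hist1h2ba, Hist1h2bj and Hist3h2ba, were also at least 2-fold higher in the wild type and at least 2-fold lower in the pair labelled Erk-/-, although Hist1h1a fell short of 2-fold in the latter under scaling (log2 ratio -1.15 as deposited and -0.97 scaled). With H2afx and H2afy, 6 of the 41 histone genes had this pattern, beside 1.79% of all genes. All except H2afx were listed at 0 in wild-type GV, and the cluster genes among them span under 1000 bases. The share of short genes with this pattern was not examined.

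**Figure D4:**
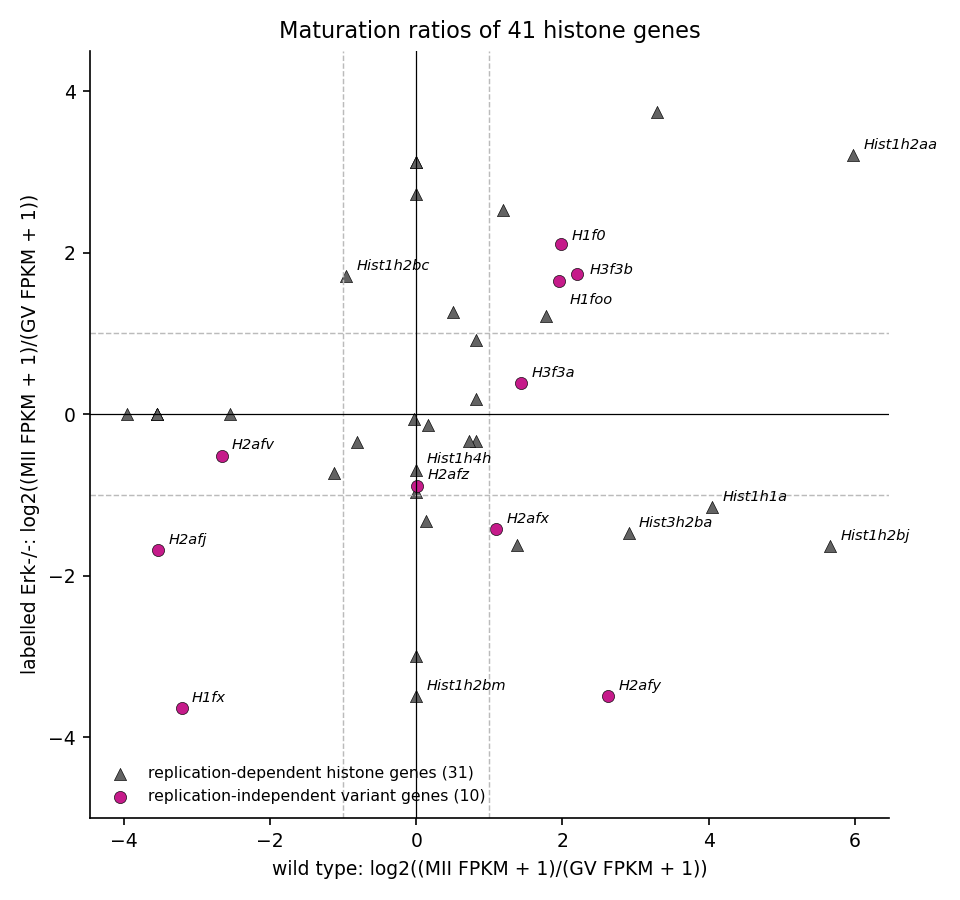
Each point is 1 of the 41 histone genes that met the filter on mean level, placed by its log2 ratio of MII to GV (FPKM + 1) in the wild type (horizontal) and in the libraries labelled Erk-/- (vertical), with dashed lines at 2-fold. H1f0, H3f3b and H1foo lie together at the upper right, H1fx at the lower left, and H2afx, H2afy, Hist1h1a, Hist1h2bj and Hist3h2ba at the lower right.

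The libraries of each stage were compared with each other, with libraries that also enter the maturation ratios. At GV, 14 of 31 replication-dependent genes were at least 2-fold higher in Erk-/- than in wild type, beside 18.4% of all genes. Another 5 were lower, beside 22.9%. Of the 67 replication-dependent genes, 10 were listed at 0 in wild-type GV and above 0 in Erk-/- GV, and 5 in the reverse. All 10 were among the 14 higher genes. The counts were 1104 and 1495 of all 23309 symbols, and 24 and 12 of the 2278 symbols spanning under 1000 bases. Of the 80 genes spanning under 1000 bases, histone genes included, 36.25% were higher and 15% lower, with a median of 0.08. The 5 lower replication-dependent genes were all H4, the genes listed above as present in wild-type GV alone. By type, 8 of 13 H2B genes, 3 of 3 H1 genes, 2 of 4 H3 genes, 1 of 7 H4 genes and 0 of 4 H2A genes were higher. Among the H2B genes that were higher, 3 had the equal value of 0.0488 FPKM in wild-type GV. In Erk-/- GV 2 of these had the equal value of 3.12 FPKM. Their transcripts share exact stretches of 191 to 230 bases, so which copy gave the reads is uncertain. Of the 10 variant genes 4 were higher in Erk-/- GV, namely H3f3a, H2afx, H2afj and H2afy, and none was lower. The medians were 0.30 for replication-dependent genes, 0.78 for variants and -0.06 for all genes.

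At MII, 11 of 31 replication-dependent genes were at least 2-fold higher in the library labelled Erk-/- than in wild type, beside 31.4% of all genes, and 4 were lower, beside 7.43%. The 4 lower genes were Hist1h1a, Hist1h2aa, Hist1h2bj and Hist2h3c1, the last an H3 gene at 4.61 FPKM in wild-type MII and 1.52 FPKM in the other. Of the variants H2afj and H2afv were higher and H2afy was lower. Of all 67 replication-dependent genes, 15 were listed at 0 in wild-type MII and above 0 in the MII library labelled Erk-/-, and 0 in the reverse. The counts were 2387 and 693 of all 23309 symbols, and 32 and 15 of the 2278 symbols spanning under 1000 bases. Several of the 15 genes were under 1 FPKM, among them 3 H3 genes with the equal value of 0.425 FPKM. The medians were 0.45 for replication-dependent genes, -0.10 for variants and 0.31 for all genes. Of the 80 genes spanning under 1000 bases, 36.25% were higher and 20% lower, with a median of 0.00. Under scaling the all-gene median moved by -0.31, and this left 9 replication-dependent genes higher and 5 lower, and 1 variant higher and 2 lower.

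The maturation ratio of the pair labelled Erk-/- minus that of the wild type, on the log2 scale, was at least 1 for 10 of 31 replication-dependent genes, beside 41.2% of all genes, and at most -1 for 10, beside 18.8%. The medians were -0.02 and 0.59. Of the 80 genes spanning under 1000 bases, 35% were at least 1 and 42.5% at most -1, with a median of -0.53. For the variants 2 genes were at least 1 (H2afj and H2afv) and 3 were at most -1 (H2afx, H2afy and H3f3a), with a median of -0.45, and scaling made these counts 2 and 5. The differences were -0.31 for H1foo, 0.12 for H1f0, -0.43 for H1fx and -0.47 for H3f3b. That of H1f0 changed sign under scaling, to -0.50.

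The position of the stem-loop was set beside the level. In 23 of the 46 cluster genes with a stem-loop at least 1 transcript ended within 100 bases of it, and 9 of these genes were listed at 0 in all libraries while 9 reached 1 FPKM. In the other 23 every stem-loop transcript ran on for more than 100 bases, and 7 were listed at 0 while 13 reached 1 FPKM. In each set 5 genes reached 10 FPKM. Hist2h2aa1, with 35 bases after the stem-loop, and Hist1h2bj, with 23, were the highest of the first set, and Hist3h2ba, with 169 and an AATAAA near the end, was the highest of the second.

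**Figure D5:**
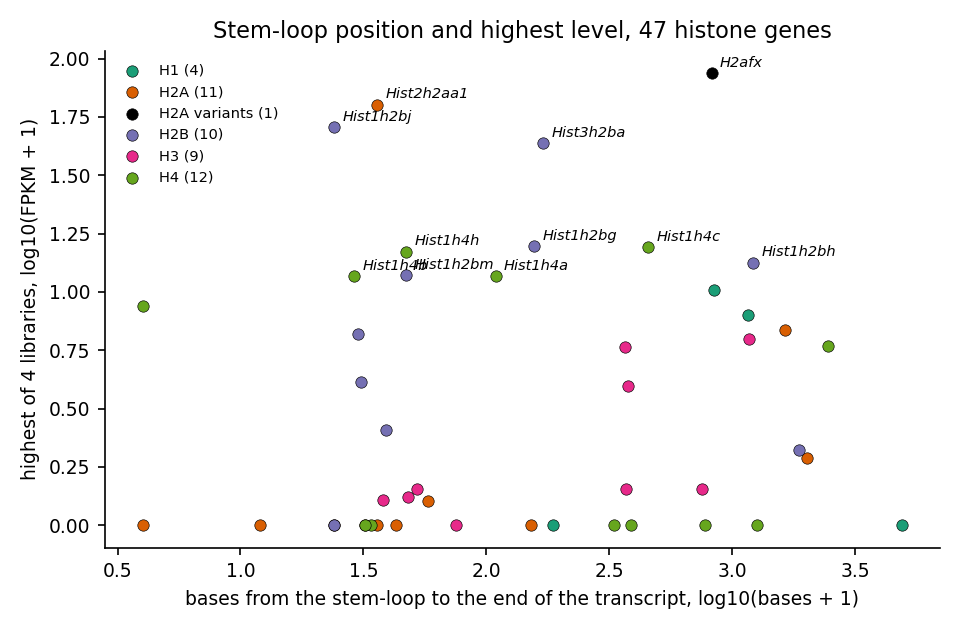
Each point is 1 of the 47 histone genes with a stem-loop match (46 cluster genes and H2afx), placed by the bases between the stem-loop and the end of its shortest such transcript, as log10(bases + 1), and by its highest level of the 4 libraries, as log10(FPKM + 1). Genes of at least 10 FPKM occur at short distances (Hist1h2bj, Hist2h2aa1) and at long ones (Hist3h2ba, H2afx).

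The genes that process histone mRNA were read from a list of 18, of which 16 passed the filter. Between wild-type GV and MII 4 of the 16 were at least 2-fold higher and 6 lower at MII, beside 20.6% and 49.6% of all genes. In the pair labelled Erk-/- 3 were higher and 6 lower, beside 22.9% and 35.6%. Slbp, whose protein binds the stem-loops shown above, stood at 365, 451, 2115 and 1651 FPKM in wild-type GV, Erk-/- GV, wild-type MII and the MII library labelled Erk-/-. Its level was 5.80-fold higher at MII in the wild type and 3.66-fold in the pair labelled Erk-/-, and it exceeded the whole replication-dependent histone sum in each library. As with the class sums, the treatment of messages without a poly(A) tail was not tested, so this comparison describes the libraries only. Upf1, an RNA helicase that takes part in the decay of histone mRNA after replication, stood at 39.8, 30.9, 409 and 335 FPKM, again with both MII libraries above both GV libraries.

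Lsm10, Sympk and Cpsf3 had both MII values below both GV values. Lsm10, a subunit of the U7 snRNP that directs cleavage after the stem-loop, stood at 254, 355, 19.5 and 73.4 FPKM. Sympk and Cpsf3, the scaffold and the endonuclease of the cleavage complex, stood at 35.0, 42.2, 1.29 and 25.7 FPKM and at 21.4, 27.4, 5.28 and 9.89 FPKM, lowest in wild-type MII in both cases. Srrt, which links the cap-binding complex to RNA processing, stood at 8.27, 21.3, 0.688 and 8.03 FPKM. Casp8ap2, needed for histone gene expression at the histone locus body, stood at 3.08, 0.0730, 64.2 and 36.6 FPKM, and Mif4gd, a partner of SLBP in translation, at 0, 13.7, 25.0 and 17.4 FPKM. At GV 5 of the 16 genes were at least 2-fold higher and 1 lower in Erk-/- than in wild type, beside 18.4% and 22.9% of all genes. At MII 5 were higher and 0 lower in the library labelled Erk-/-, beside 31.4% and 7.43%.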

How the data were processed

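Each library held RNA of pooled oocytes, sequenced in read pairs on an Illumina HiSeq, per the labels' protocols. CASAVA 1.8, TopHat and mm9 are named in the submitters' processing notes. The program that made the deposited FPKM values, the treatment of reads with several positions, strand and the method of mRNA selection were not found in these sources, and read depth is unknown. FPKM was used as deposited by the authors, summed per symbol over 23813 rows. Locus starts were counted from 0 in the files and 1 was added. The summed FPKM lay between 401160 and 453226. Of histone rows above 0, 10.2% to 29.0% of a library lay above their own deposited upper bound, beside 6.97% to 10.0% of all rows, so bounds are not quoted. H1foo, H3f3a, H3f3b and Hist1h2bc did so in all 4 libraries. Further cases were H1fx in both GV libraries and Hist1h4a, Hist1h4b, Hist1h4c and Hist1h4k in wild-type GV. H1f0, Hist1h2aa and Hist1h2bj did so in wild-type MII, Hist3h2ba in Erk-/- GV and Hist1h2bh in the MII library labelled Erk-/-.

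Ratios were computed with a pseudocount of 1 FPKM in Python 3.11.15 with pandas 2.3.3, over genes whose mean reached 1 FPKM, and the calculation was tested on simulated data. Members with at least 10 FPKM in a library were named, and up to 8 processing genes of at least 10 FPKM with the largest 2-fold differences. Members outside that rule (H2afy2, Hist1h1c, H1fnt, H2afb1, H2afy3, Hist1h2ba, Hist4h4, Hist2h3c1, Hist2h2aa2) were named after their values were seen. The members and lists were chosen with earlier results of these data known. Alternatives were scaling, the pseudocount, the filter, genes listed at 0 or above their upper bound, and class membership.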

Additional observations from a re-analysis of the deposited data

Results flagged for a closer look

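Of the 41 histone genes that met the filter on mean level, 6 were at least 2-fold higher at MII in the wild type and at least 2-fold lower at MII in the pair labelled Erk-/-, beside 1.79% of all genes, each difference resting on 4 libraries and not tested. Under median-of-ratios scaling the count was 5, beside 2.22% of all genes. None of the 41 had the reverse pattern, which 447 of 9990 genes showed. The maturation log2 ratio of the pair labelled Erk-/- minus that of the wild type was -2.52 for H2afx, -6.12 for H2afy, -5.20 for Hist1h1a, -3.00 for Hist1h2ba, -7.30 for Hist1h2bj and -4.38 for Hist3h2ba. All except H2afx were listed at 0 in wild-type GV, so the wild-type ratios of the other 5 depend on the pseudocount. Hist1h1a, Hist1h2ba, Hist1h2bj and Hist3h2ba span under 1000 bases, and the share of short genes with this pattern was not examined. The gene lost under scaling was Hist1h1a, whose ratio in the pair labelled Erk-/- was then -0.97.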

How the results depend on the processing

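Among 165 ratios of the named histone and processing genes, none of the 99 past 2-fold changed sign under scaling or the smaller pseudocount. No paired analysis was possible because each group has 1 library. Counts below are of replication-dependent (RD) or variant genes at least 2-fold higher or lower.

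With median-of-ratios scaling, variants at MII (labelled Erk-/- against wild type) were 1 higher and 2 lower, and 5 had a lower maturation ratio. RD sums became 147 FPKM in wild-type GV and 351 FPKM in wild-type MII, above the 327 FPKM of the MII library labelled Erk-/-, and variant sums 2167, 2630, 14353 and 8160 FPKM. Scaling took 6 of the 99 under 2-fold and brought 9 others past it. Hist3h2ba (1.06 to 0.59) and H2afv (1.25 to 0.89) at MII were among those lost, and H3f3b at MII (-0.53 to -1.06) among those gained. With a pseudocount of 0.1 FPKM, 13 RD genes were higher at MII in the wild type. With no filter, 1 variant was lower in Erk-/- GV.

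With a mean of at least 10 FPKM, RD counts higher and lower were 3 and 0 for wild-type maturation, 3 and 2 for maturation labelled Erk-/-, 2 and 0 at GV, 2 and 2 at MII, and 1 and 3 for the difference of ratios. Variants were 1 and 0 at MII, and 1 had a higher difference of ratios.

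Without genes listed at 0 in any library, RD counts were 1 and 1, 3 and 1, 4 and 0, 2 and 1, and 1 and 3 in the same order, and 0 variants were lower at MII. Without genes above their own upper bound, RD counts were 4 and 2 for wild-type maturation, 1 lower at GV, 2 lower at MII and 5 with a higher difference of ratios. Variants were then 2 higher in wild-type and 0 higher in labelled Erk-/- maturation.

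Without testis-expressed members, H2afx, H2afj and pseudogenes, variants were 2 lower in labelled Erk-/- maturation, 2 higher at GV, 1 higher at MII and 1 with a higher difference of ratios, the RD sum of wild-type MII was 197 FPKM, and the variant sum of Erk-/- GV was 3137 FPKM. Leaving out Hist1h2bc, an alternative chosen after seeing the data, gave RD sums of 98.4 FPKM in wild-type GV and 189 FPKM in the MII library labelled Erk-/-, below the 212 FPKM of wild-type MII. Read depth is unknown, so no limit can be set for genes listed at 0.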

Other observations

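Cenpa, the gene of the centromeric H3 variant, lies outside the symbol rule. It stood at 27.5 FPKM in wild-type GV, 69.0 FPKM in Erk-/- GV, 92.8 FPKM in wild-type MII and 87.1 FPKM in the MII library labelled Erk-/-. The Erk-/- GV value lay between the wild-type GV value and those of the MII libraries, as that of H3f3a did.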
